A study of Homo sapiens with 16 samples.

Results

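The genes described here are 37 imprinted genes that lie outside the 15q11 domain. They were taken from a list of gene symbols, by imprinted cluster, and the rule used no value measured in these samples. The list was nevertheless chosen with earlier results of these data known. Of the 37, 36 had a row among the 60448 genes of the count tables, matched by Ensembl identifier through current or older symbols. HYMAI had no matching row and was not analysed here. A filter on low counts left 27 members for testing, 23 of which had counts in all 16 libraries. The other 9 members with a row are described at the end of the clusters.

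RNA was sequenced from HMLER cells, a line of human mammary epithelial cells that was immortalized and transformed with introduced genes, among them TERT and oncogenic HRAS. All 8 groups have 2 libraries each and share that background. The labels give the genotype of C1, C2-Epi, C2-Mes and sgControl as wild type. C1 is described as stably epithelial, C2-Epi as epithelial but plastic, and C2-Mes as mesenchymal. The sgControl cells are C1 cells with a control guide. C1 cells with a guide against EED (genotype EED-KO) were profiled in an epithelial state, sgEED-Epi, and a mesenchymal state, sgEED-Mes. C1 cells with a guide against KMT2D (genotype KMT2D-KO) were profiled likewise as sgKMT2D-Epi and sgKMT2D-Mes. The EED protein belongs to the core of PRC2, which deposits the repressive trimethyl mark on lysine 27 of histone H3, and KMT2D is a methyltransferase of histone H3 lysine 4 at enhancers. All groups were cultured in the same medium with insulin, EGF and hydrocortisone. The labels do not say whether a group is a clone, or whether its 2 libraries are separate cultures, so p-values measure the spread between libraries of the same group only. That spread was fitted for each gene over all 8 groups together. A group whose libraries lie far apart therefore widens it for every comparison of that gene. The comparisons ask how imprinted genes differ between the epithelial and mesenchymal state of each lineage, and between the epithelial groups.

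Imprinted genes are transcribed mainly from the maternal or the paternal copy, because DNA methylation set in the germ line marks a control region of the cluster on that copy. Within a cluster, a noncoding RNA and protein-coding genes are often expressed from opposite parental copies. Many of the genes act on fetal and placental growth, and several change in level in cancers, including breast cancers. Gene counts do not separate the parental copies, so the values below are total transcript levels and say nothing of which copy was read.

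The libraries held between 18872124 counts (C2-Mes replicate 1) and 31950649 (C2-Mes replicate 2). Levels are CPM, counts brought to a common library size after TMM scaling, and the values of a group are given as replicate 1 and replicate 2. The log2 CPM of the 2 libraries of a group correlated across genes with r of 0.988 to 0.994, except for C2-Mes at 0.967. The summed CPM of 6 epithelial markers was 4220 to 11300 in the epithelial libraries and 26.6 to 152 in the mesenchymal ones. That of 6 mesenchymal markers was 798 to 2110 and 7850 to 14900. CDH1, the E-cadherin gene, stood at 395 and 377 CPM in C1 and at 0.935 and 0.607 in C2-Mes. ZEB1, a repressor of epithelial genes, stood at 0.0424 and 0.286 and 176 and 92.1. EED transcripts were at 26.6 and 21.6 CPM in sgControl, 26.7 and 29.6 in sgEED-Epi and 5.22 and 5.50 in sgEED-Mes. KMT2D transcripts were at 89.9 and 70.9 CPM in sgControl, 124 and 127 in sgKMT2D-Epi and 86.6 and 76.8 in sgKMT2D-Mes. A guide can disrupt a protein without lowering its transcript, so these levels do not check the edit. Leukocyte markers summed to 1.05 to 7.68 CPM and skeletal muscle markers to 1.71 to 4.45 in every library. The 6 trophoblast markers summed to 462 and 417 CPM in C2-Epi and 57.2 and 65.5 in C2-Mes, to 1380 and 1430 in sgKMT2D-Epi and 298 and 254 in sgKMT2D-Mes, to 1220 and 1350 in sgEED-Epi and 910 and 717 in sgEED-Mes, and to 767 to 860 in C1 and sgControl. Nearly all of that sum was KRT7, a keratin gene that other epithelia also express. The other 5 summed to at most 0.744 CPM outside C2-Mes and to 8.41 and 1.92 in C2-Mes, where CYP19A1, the aromatase gene, stood at 8.36 and 1.85 and CGA, GCM1 and ERVW-1 were at 0. The 5 endothelial markers summed to 19.6 and 32.2 CPM in C2-Mes and to at most 4.56 elsewhere. In C2-Mes PECAM1 stood at 16.6 and 25.5, VWF at 1.64 and 5.18 and CLDN5 at 1.29 and 1.44. TEK stood at 0.0584 and 0.0639 there, and CDH5 was at 0. Ribosomal protein genes took 5.95% and 7.22% of the counts in sgControl and 3.27% to 5.0% elsewhere. Mitochondrial genes took 12.5% and 8.15% in C2-Mes, 7.51% and 11.6% in sgEED-Mes and 7.01% to 10.6% elsewhere. Whether any of these shifts had a part in the results below was not tested.

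From epithelial to mesenchymal cells, 4 of the 27 tested members were called in opposite directions in different lineages, against 5.75% of all genes tested. In all 3 lineages, 1 member rose (7.69% of all genes) and 2 fell (7.03%). In the KMT2D lineage the largest rises among called members were those of the noncoding RNA gene MEG3 (log2 4.51), the RAS-like gene DIRAS3 (4.02), the transporter gene SLC22A18 (3.62) and the noncoding RNA gene MEG8 (3.40). H19 fell in the C2 lineage and rose in the KMT2D lineage, and IGF2 fell in both of these and rose in the EED lineage. Both H19 calls and the IGF2 call in the C2 lineage were lost in some other fits, given below. In the C2 lineage, 12 of the 27 tested members rose, 8 fell and 7 did not pass the test, where 21% of all 18285 genes tested rose and 18.6% fell (edgeR quasi-likelihood test, Benjamini-Hochberg adjusted p under 0.05). The share of members called there was 74.1%, against 39.6% of all genes. The median log2 change was 0.62 over the members and 0.01 over all genes tested. In the EED lineage, 4 rose (19.2% of all genes), 3 fell (17.3%) and 20 did not pass, a share of 25.9% against 36.5%, with medians of 0.18 and 0.01. In the KMT2D lineage, 12 rose (26.8% of all genes), 5 fell (24.0%) and 10 did not pass, a share of 63.0% against 50.8%, with medians of 0.41 and 0.02. With only the 4 libraries of the C2 lineage fitted, 11 members were called there in place of 20. Over all genes, 3361 of 16009 were then called in place of 7246 of 18285.

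SGCE was the 1 member that rose in all 3, against 7.69% of all genes tested, and BLCAP and L3MBTL1 were the 2 that fell in all 3, against 7.03%. Another 3 members were called in all 3 lineages with differing signs. In all, 4 members were called up in some lineage and down in another, against 5.75% of all genes tested. These 4 were IGF2, PPP1R9A, GRB10 and H19. The difference between lineages was tested as an interaction. It was called for 12 members between the EED and C2 lineages (21.1% of all genes tested), for 10 between the KMT2D and C2 lineages (24.1%) and for 11 between the EED and KMT2D lineages (20.1%). Leaving out C2-Mes replicate 2 raised the number called between the KMT2D and C2 lineages, over the members and over all genes alike. With only the libraries of the EED and C2 lineages fitted, 6 members were called between these in place of 12. Over all genes, 2130 of 17525 were then called in place of 3866 of 18285. In bulk samples, fewer cells that transcribe a gene and less RNA per cell cannot be told apart, and this holds for every level below.

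**Figure D1:**
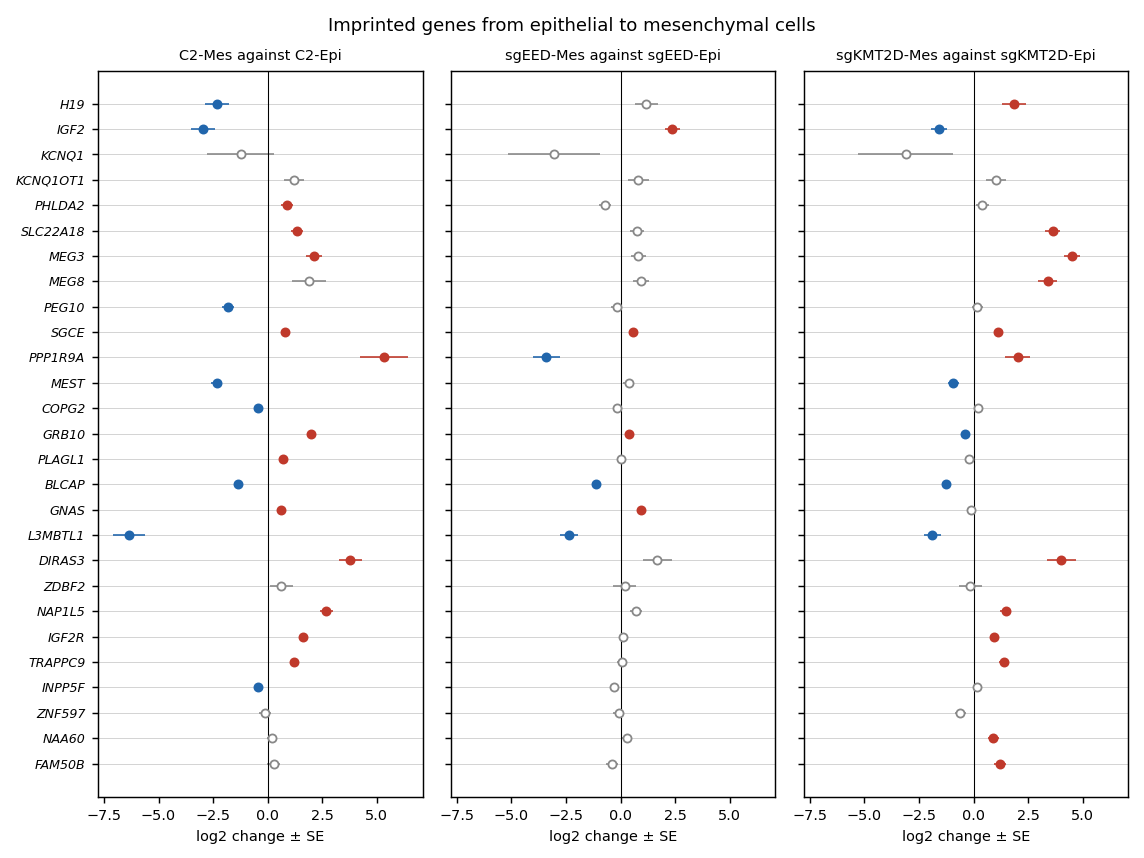
Log2 change of the 27 tested members from epithelial to mesenchymal cells in the C2, EED and KMT2D lineages, with the standard error as a bar. Red points rose and blue points fell at an adjusted p under 0.05, and open grey points did not pass: 12, 4 and 12 members are red and 8, 3 and 5 are blue.

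Among the epithelial groups, more members were called in the guide lines against sgControl than in C2-Epi or sgControl against C1. The same held over all genes tested, and the references differ. From C1 to C2-Epi, 1 member rose (12.4% of all genes), 9 fell (18.3%) and 17 did not pass, a share of 37% against 30.7% of all genes tested. The medians were -0.26 and -0.04. Between sgControl and C1, 2 groups without a guide against either gene, 5 members were higher in sgControl (13.3% of all genes), 4 were lower (13.8%) and 18 did not pass, a share of 33.3% against 27.1%. In sgEED-Epi against sgControl, 10 were higher (24.3% of all genes), 8 were lower (24.6%) and 9 did not pass, a share of 66.7% against 48.8%. In sgKMT2D-Epi against sgControl, 8 were higher (25.3% of all genes), 10 were lower (30.7%) and 9 did not pass, a share of 66.7% against 56.0%. Against C1 alone, 9 members were called in sgEED-Epi in place of 18, and 4601 of all genes tested in place of 8930. Leaving out any 1 library of the compared groups lowered the number called for C2-Epi and for sgControl against C1. This held over the members and over all genes alike. The guide comparisons and the comparison of sgControl with C1 share the sgControl libraries, so a low or high sgControl level enters all 3.

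H19 and IGF2 share a control region on chromosome 11 at which the insulator protein CTCF decides which of them the downstream enhancers reach. H19 (ENSG00000130600, chromosome 11, 1995176 to 2001470, minus strand) yields a noncoding RNA normally read from the maternal copy, and IGF2 (ENSG00000167244, chromosome 11, 2129112 to 2149603, minus strand) encodes a fetal growth factor normally read from the paternal copy. The sequence around the H19 start is shown because its level moved in opposite directions in 2 of the lineages. It runs from 250 bases before the start to 50 bases after it, from RefSeq on GRCh38.p14 (chr11:2001217-2001516, minus strand), with each CpG, the dinucleotide that carries DNA methylation, in capitals. It holds 6 CpGs, against a median of 14 over the 35116 promoter windows of that table.
H19: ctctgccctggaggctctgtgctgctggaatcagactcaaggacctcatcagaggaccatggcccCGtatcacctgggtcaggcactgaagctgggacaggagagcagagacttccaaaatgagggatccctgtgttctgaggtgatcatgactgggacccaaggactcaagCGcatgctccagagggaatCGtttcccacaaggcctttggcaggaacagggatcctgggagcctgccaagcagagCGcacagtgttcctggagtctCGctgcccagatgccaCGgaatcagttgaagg

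The H19 level was 65.9 and 79.5 CPM in C1, 59.3 and 64.8 in sgControl, 64.4 and 57.5 in C2-Epi, 62.1 and 76.2 in sgEED-Epi and 129 and 123 in sgKMT2D-Epi. In the mesenchymal groups it was 22.5 and 2.72 CPM in C2-Mes, 155 and 156 in sgEED-Mes and 451 and 462 in sgKMT2D-Mes. The sgKMT2D-Mes libraries were the highest of all 16, and the C2-Mes libraries were the lowest and lay far apart. H19 fell from C2-Epi to C2-Mes (log2 -2.32 ± 0.57 (SE), edgeR adjusted p = 0.0053) and rose from sgKMT2D-Epi to sgKMT2D-Mes (log2 1.86 ± 0.54 (SE), edgeR adjusted p = 0.012). The H19 call in the C2 lineage was lost in a fit of the compared libraries alone (adjusted p = 0.17). The H19 log2 change in the C2 lineage was -4.59 without C2-Mes replicate 1 and -1.48 without C2-Mes replicate 2. The H19 call in the KMT2D lineage was lost when any of the 4 libraries was left out (adjusted p = 0.053 to 0.088). From sgEED-Epi to sgEED-Mes the test was not passed (log2 1.17 ± 0.53 (SE), edgeR adjusted p = 0.11), although both mesenchymal libraries lay above both epithelial ones. The H19 change in the EED lineage was called with no filter on low counts (adjusted p = 3e-08) and in a fit of the compared libraries alone (adjusted p = 0.003). The change in the KMT2D lineage exceeded that in the C2 lineage by 4.17 ± 0.79 on the log2 scale (edgeR adjusted p = 0.0018), and by 6.38 without C2-Mes replicate 1. H19 did not pass the test in any of the 4 comparisons among epithelial groups, although sgKMT2D-Epi lay above sgControl in both libraries (log2 1.02 ± 0.53 (SE), edgeR adjusted p = 0.12). The H19 change for sgKMT2D-Epi was called with no filter on low counts (adjusted p = 2.3e-08), after GC and length correction (adjusted p = 0.013) and in a fit of the compared libraries alone (adjusted p = 2.2e-05).

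IGF2 stood at 11.7 and 11.8 CPM in C1, 28.0 and 25.7 in sgControl, 3.0 and 2.92 in C2-Epi, 16.9 and 14.5 in sgEED-Epi and 18.1 and 14.6 in sgKMT2D-Epi. The mesenchymal values were 0.876 and 0.0639 CPM in C2-Mes, 65.4 and 96.8 in sgEED-Mes and 5.27 and 5.69 in sgKMT2D-Mes. Both sgEED-Mes libraries were above every other library, and both C2-Mes libraries were below every other. IGF2 rose from sgEED-Epi to sgEED-Mes (log2 2.37 ± 0.34 (SE), edgeR adjusted p = 0.0001), and fell in the C2 lineage (log2 -2.97 ± 0.54 (SE), edgeR adjusted p = 0.00056) and the KMT2D lineage (log2 -1.58 ± 0.35 (SE), edgeR adjusted p = 0.0021). The IGF2 call in the C2 lineage was lost in a fit of the compared libraries alone (adjusted p = 0.12). The IGF2 log2 change in the C2 lineage was -5.54 without C2-Mes replicate 1 and -1.79 without C2-Mes replicate 2. The change in the EED lineage exceeded that in the C2 lineage by 5.34 ± 0.62 on the log2 scale (edgeR adjusted p = 3.5e-05) and that in the KMT2D lineage by 3.95 ± 0.49 (edgeR adjusted p = 8.8e-05). IGF2 was lower in C2-Epi than in C1 (log2 -1.99 ± 0.37 (SE), edgeR adjusted p = 0.0015) and higher in sgControl than in C1 (log2 1.19 ± 0.34 (SE), edgeR adjusted p = 0.019). The IGF2 call for sgControl was lost when any of the 4 libraries was left out (adjusted p = 0.082 to 0.13).

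Per kilobase of exon, H19 exceeded IGF2 in every library. The ratio of H19 to IGF2 per kilobase was 206 and 196 in sgKMT2D-Mes and 5.69 and 3.87 in sgEED-Mes, the latter below the 8.87 and 12.6 of sgEED-Epi. It was 13.6 and 16.2 in C1, 5.10 and 6.07 in sgControl, 51.7 and 47.4 in C2-Epi, 17.1 and 20.3 in sgKMT2D-Epi, and 61.8 and 102 in C2-Mes. The adjacent exons of IGF2 and IGF2-AS overlap by 333 bases on opposite strands, and IGF2-AS had 20 counts over the 16 libraries. INS-IGF2 shares 1460 bases with IGF2 on the same strand, 20.92% of the IGF2 exons, and had 0 counts. The IGF2 level per kilobase may depend on how reads of shared bases were counted.

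**Figure D2:**
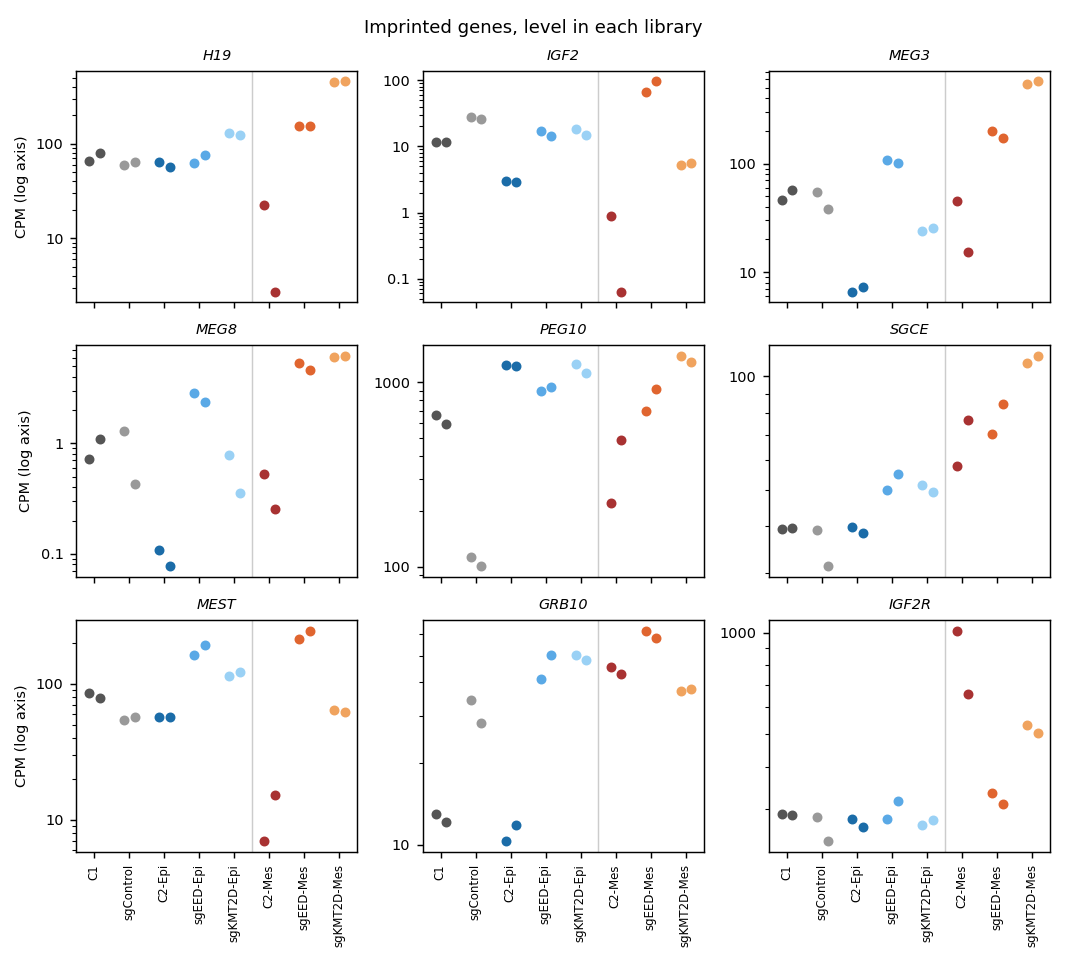
CPM of 9 imprinted genes in each of the 16 libraries, on log axes, with 2 points per group (replicates 1 and 2) and a grey line between the epithelial groups on its left and the mesenchymal groups on its right. H19 is highest in sgKMT2D-Mes (451 and 462), IGF2 in sgEED-Mes (65.4 and 96.8), and PEG10 lowest in sgControl (112 and 100.3).

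The growth factor of IGF2 acts through the receptor IGF1R and is cleared by IGF2R, itself a member, while GRB10 is an adaptor that dampens signals of the insulin and IGF1 receptors. IGF2R (ENSG00000197081, chromosome 6, 159969099 to 160113507, plus strand) stood at 289.8 and 288 CPM in C1, 283 and 241 in sgControl, 279.6 and 265 in C2-Epi, 279 and 318 in sgEED-Epi and 269.5 and 277 in sgKMT2D-Epi, a narrow range. The mesenchymal libraries held 1015 and 657 CPM in C2-Mes, 333 and 309 in sgEED-Mes and 532 and 504 in sgKMT2D-Mes. IGF2R rose in the C2 lineage (log2 1.62 ± 0.18 (SE), edgeR adjusted p = 4.9e-06) and in the KMT2D lineage (log2 0.92 ± 0.17 (SE), edgeR adjusted p = 0.00051), and gave log2 0.11 ± 0.17 (SE), edgeR adjusted p = 0.68 in the EED lineage. The IGF2R value in the EED lineage was 0.05 with no filter on low counts (adjusted p = 1.0), -0.06 after GC and length correction (adjusted p = 0.77), 0.02 in a fit of the compared libraries alone (adjusted p = 0.91), 0.00 without sgEED-Epi replicate 1 (adjusted p = 1.0) and 0.01 without sgEED-Mes replicate 1 (adjusted p = 0.99). No comparison among the 4 of epithelial groups called IGF2R.

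GRB10 (ENSG00000106070, chromosome 7, 50590063 to 50793462, minus strand) was measured at 13.0 and 12.2 CPM in C1, 34.2 and 28.3 in sgControl, 10.3 and 11.8 in C2-Epi, 41.1 and 50.2 in sgEED-Epi and 50.2 and 48.2 in sgKMT2D-Epi. In mesenchymal cells GRB10 was at 45.3 and 42.8 CPM in C2-Mes, 61.9 and 58.0 in sgEED-Mes and 36.9 and 37.6 in sgKMT2D-Mes. C1 and C2-Epi were the low groups, below all the other libraries. GRB10 rose from C2-Epi to C2-Mes (log2 1.99 ± 0.15 (SE), edgeR adjusted p = 1.4e-07) and was higher in sgControl than in C1 (log2 1.31 ± 0.15 (SE), edgeR adjusted p = 5.3e-05). In the EED lineage it rose by 0.39 ± 0.14 on the log2 scale (edgeR adjusted p = 0.047), and in the KMT2D lineage it fell (-0.40 ± 0.14, edgeR adjusted p = 0.033). The GRB10 call in the EED lineage was lost with no filter on low counts (adjusted p = 0.31), in a fit of the compared libraries alone (adjusted p = 0.19) and when any of the 4 libraries was left out (adjusted p = 0.054 to 0.33). The GRB10 call in the KMT2D lineage was lost with no filter on low counts (adjusted p = 0.057) and without any 1 of sgKMT2D-Epi replicate 1, sgKMT2D-Mes replicate 1 and sgKMT2D-Mes replicate 2 (adjusted p = 0.059 to 0.074).

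Other genes of the IGF axis were taken from a list of 24. It holds IGF1, receptors, adaptors, binding proteins, binding-protein proteases and IGF2 mRNA-binding proteins. STC1, STC2, LIN28A, LIN28B and HMGA2 are also on it. Of the 24, 19 were tested. In the C2 lineage 12 rose, 4 fell and 3 did not pass, in the EED lineage 13 rose, 5 fell and 1 did not pass, and in the KMT2D lineage 11 rose, 6 fell and 2 did not pass. The shares called were 84.2%, 94.7% and 89.5%, against 39.6%, 36.5% and 50.8% of all genes tested. Their median log2 changes were 2.71, 1.42 and 0.72, against 0.01, 0.01 and 0.02 over all genes tested. The binding proteins IGFBP2, IGFBP3, IGFBP4 and IGFBP5, which hold IGFs in the extracellular space, were higher in each mesenchymal group. IGFBP4 went from 26.3 ± 2.98 to 903 ± 233 CPM (mean ± SD, n = 2), from 83.0 ± 12.8 to 958 ± 205, and from 43.0 ± 5.03 to 1194 ± 59.4, with edgeR adjusted p of at most 2e-08. IGFBP3 rose by 6.31 ± 0.35, 6.98 ± 0.31 and 7.69 ± 0.33 on the log2 scale, with adjusted p of at most 5.7e-09 (edgeR). IGFBP2 rose by 8.67 ± 0.50, 2.97 ± 0.38 and 9.41 ± 0.51, with adjusted p of at most 3.3e-05. IGFBP5 rose by 2.92 ± 0.38, 4.69 ± 0.34 and 5.86 ± 0.48, with adjusted p of at most 2.7e-05. PAPPA, a protease that frees IGFs by cutting IGFBP4, went from 0.0734 ± 0.0495 to 22.6 ± 20.9 CPM in the C2 lineage, from 2.53 ± 0.198 to 61.9 ± 8.07 in the EED lineage and from 5.72 ± 0.419 to 43.6 ± 1.54 in the KMT2D lineage, with adjusted p of at most 0.00039. STC1, an inhibitor of PAPPA, rose by 7.79 ± 0.33, 2.07 ± 0.23 and 2.54 ± 0.26, with adjusted p of at most 8.3e-06. So IGF2 fell in 2 lineages in which IGFBP2, IGFBP3, IGFBP4 and IGFBP5 rose, and rose with them in the third. The IGF axis genes named here were picked by size of change. Of the 19 tested, 4, 5 and 6 fell in the C2, EED and KMT2D lineages.

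The KCNQ1 domain lies beside H19 and IGF2. Its noncoding RNA, KCNQ1OT1, is read from the paternal copy across the KCNQ1 gene and silences neighbours such as PHLDA2 and SLC22A18 on that copy. KCNQ1OT1 (ENSG00000269821, chromosome 11, 2608328 to 2699994, minus strand) stood at 7.64 and 14.4 CPM in C1, 5.79 and 4.97 in sgControl, 12.7 and 13.7 in C2-Epi, 10.1 and 4.0 in sgEED-Epi and 11.8 and 11.8 in sgKMT2D-Epi. Mesenchymal libraries held 45.3 and 16.5 CPM in C2-Mes, 15.6 and 9.03 in sgEED-Mes and 25.6 and 23.0 in sgKMT2D-Mes. The 2 libraries of C2-Mes and of sgEED-Epi lay far apart. It did not pass the test in any lineage (log2 1.22 ± 0.46 (SE), edgeR adjusted p = 0.051 in the C2 lineage). The KCNQ1OT1 change in the C2 lineage was called with no filter on low counts (adjusted p = 3.6e-06), in the DESeq2 Wald test (adjusted p = 0.026) and without C2-Mes replicate 2 (adjusted p = 0.016). The KCNQ1OT1 value in the C2 lineage was 0.21 without C2-Mes replicate 1 (adjusted p = 0.76). KCNQ1, a potassium channel gene, had 71 counts over all libraries. Its level was 0.552 and 0.532 CPM in C1 and 0.839 and 0.728 in sgControl, and at most 0.0797 in any library of the other 6 groups. Its sgControl libraries together had 37 counts and the sgEED-Epi libraries 2, a ratio of 21.5 (95% exact binomial interval 5.54 to 184, covering counting error only). KCNQ1 and KCNQ1OT1 exons overlap by 121 bases on opposite strands. The strand setting of the counting is not given in the sources used here, so reads of such overlaps cannot be told apart, here and below.

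PHLDA2, a growth-restraining gene of the placenta (ENSG00000181649, chromosome 11, 2928273 to 2929455, minus strand), was measured at 43.6 and 39.6 CPM in C1, 33.5 and 32.2 in sgControl, 49.8 and 42.7 in C2-Epi, 47.3 and 53.0 in sgEED-Epi and 21.5 and 20.3 in sgKMT2D-Epi. In mesenchymal libraries it stood at 51.2 and 121 CPM in C2-Mes, 34.5 and 26.2 in sgEED-Mes and 28.5 and 26.9 in sgKMT2D-Mes. sgKMT2D-Epi held the lowest libraries and C2-Mes replicate 2 the highest. PHLDA2 rose from C2-Epi to C2-Mes (log2 0.90 ± 0.28 (SE), edgeR adjusted p = 0.021). The PHLDA2 call in the C2 lineage was lost in a fit of the compared libraries alone (adjusted p = 0.23) and without any 1 of C2-Epi replicate 1, C2-Epi replicate 2 and C2-Mes replicate 2 (adjusted p = 0.075 to 0.65).

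SLC22A18 encodes an organic cation transporter (ENSG00000110628, chromosome 11, 2899721 to 2925246, plus strand). It stood at 8.61 and 9.82 CPM in C1, 11.9 and 12.3 in sgControl, 4.80 and 5.0 in C2-Epi, 2.25 and 1.61 in sgEED-Epi and 0.780 and 0.717 in sgKMT2D-Epi. Its mesenchymal levels were 9.93 and 14.9 CPM in C2-Mes, 4.43 and 1.94 in sgEED-Mes and 9.62 and 8.97 in sgKMT2D-Mes. The sgKMT2D-Epi libraries were the lowest, and the sgEED-Mes libraries overlapped with those of sgEED-Epi. SLC22A18 was lower in sgEED-Epi than in sgControl (log2 -2.65 ± 0.32 (SE), edgeR adjusted p = 1.8e-05) and lower in sgKMT2D-Epi (log2 -4.0 ± 0.36 (SE), edgeR adjusted p = 1e-06). It rose from sgKMT2D-Epi to sgKMT2D-Mes (log2 3.62 ± 0.36 (SE), edgeR adjusted p = 1.7e-06) and from C2-Epi to C2-Mes (log2 1.35 ± 0.29 (SE), edgeR adjusted p = 0.0021), and gave log2 0.74 ± 0.33 (SE), edgeR adjusted p = 0.095 in the EED lineage. The SLC22A18 change in the EED lineage was called after GC and length correction (adjusted p = 0.008) and without sgEED-Mes replicate 2 (adjusted p = 0.006). The SLC22A18 value in the EED lineage was 0.45 without sgEED-Epi replicate 2 (adjusted p = 0.45) and -0.04 without sgEED-Mes replicate 1 (adjusted p = 0.96). The rise in the KMT2D lineage exceeded that in the C2 lineage by 2.27 ± 0.46 on the log2 scale (edgeR adjusted p = 0.0026). SLC22A18 and its antisense gene SLC22A18AS share 227 bases of exon.

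The DLK1-MEG3 cluster on chromosome 14 carries the maternally read noncoding RNAs MEG3 and MEG8 and, on the paternal copy, the protein-coding genes DLK1, RTL1 and DIO3. MEG3 (ENSG00000214548, chromosome 14, 100779410 to 100861031, plus strand) is best known for stimulating p53 in cultured cells and is often silenced in tumours. Its promoter is shown because MEG3 had the largest rise of the KMT2D lineage among members called there. The window is RefSeq, GRCh38.p14, chr14:100825858-100826157, plus strand, and capitals mark TGACGTCA, the cyclic AMP response element, at position 201 and TATAAA, the TATA box, at position 233, counted from the first base printed, with the start of transcription at position 251. It holds 19 CpGs and is the first of 3 MEG3 windows, each of which has both motifs. On either strand, TGACGTCA occurs in 1.85% and TATAAA in 11.5% of the 35116 windows.
MEG3: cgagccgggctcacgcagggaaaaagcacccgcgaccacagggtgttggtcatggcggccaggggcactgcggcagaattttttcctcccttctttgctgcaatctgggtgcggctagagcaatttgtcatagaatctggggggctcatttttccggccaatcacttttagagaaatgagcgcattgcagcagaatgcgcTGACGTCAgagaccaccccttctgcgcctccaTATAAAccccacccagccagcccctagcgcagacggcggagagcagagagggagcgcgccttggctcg

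MEG3 stood at 46.7 and 57.8 CPM in C1, 54.6 and 38.6 in sgControl, 6.61 and 7.30 in C2-Epi, 108 and 102 in sgEED-Epi and 23.8 and 25.5 in sgKMT2D-Epi. The mesenchymal levels were 44.9 and 15.5 CPM in C2-Mes, 198 and 172 in sgEED-Mes and 546 and 577 in sgKMT2D-Mes. C2-Epi was lowest, apart from all other libraries, and sgKMT2D-Mes was highest. MEG3 rose from sgKMT2D-Epi to sgKMT2D-Mes (log2 4.51 ± 0.38 (SE), edgeR adjusted p = 5.6e-07) and from C2-Epi to C2-Mes (log2 2.11 ± 0.36 (SE), edgeR adjusted p = 0.00038). The MEG3 call in the C2 lineage was lost in a fit of the compared libraries alone (adjusted p = 0.061). The MEG3 log2 change in the C2 lineage was 1.04 without C2-Mes replicate 1. In the EED lineage both mesenchymal libraries lay above both epithelial ones, but the test was not passed (log2 0.82 ± 0.33 (SE), edgeR adjusted p = 0.071). The MEG3 change in the EED lineage was called with no filter on low counts (adjusted p = 0.0003), in the DESeq2 Wald test (adjusted p = 0.046) and in a fit of the compared libraries alone (adjusted p = 0.019). The rise in the KMT2D lineage exceeded that in the C2 lineage by 2.40 ± 0.49 on the log2 scale (edgeR adjusted p = 0.003). MEG3 was lower in C2-Epi than in C1 (log2 -2.91 ± 0.37 (SE), edgeR adjusted p = 7.9e-05), higher in sgEED-Epi than in sgControl (log2 1.17 ± 0.34 (SE), edgeR adjusted p = 0.011) and lower in sgKMT2D-Epi than in sgControl (log2 -0.92 ± 0.34 (SE), edgeR adjusted p = 0.034). The MEG3 call for sgEED-Epi was lost without sgControl replicate 2 (adjusted p = 0.11) and without sgEED-Epi replicate 1 (adjusted p = 0.054). The MEG3 call for sgKMT2D-Epi was lost after GC and length correction (adjusted p = 0.12) and when any of the 4 libraries was left out (adjusted p = 0.06 to 0.21).

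MEG8, the noncoding RNA downstream of MEG3, was low throughout: 0.721 and 1.10 CPM in C1, 1.30 and 0.428 in sgControl, 0.108 and 0.0769 in C2-Epi, 2.86 and 2.35 in sgEED-Epi and 0.780 and 0.358 in sgKMT2D-Epi. Mesenchymal libraries held 0.526 and 0.256 CPM in C2-Mes, 5.41 and 4.67 in sgEED-Mes and 6.02 and 6.21 in sgKMT2D-Mes. Its group means followed the order of those of MEG3, with C2-Epi lowest and sgKMT2D-Mes highest, except that C2-Mes lay below sgKMT2D-Epi. MEG8 rose in the KMT2D lineage (log2 3.40 ± 0.43 (SE), edgeR adjusted p = 1.7e-05) and was lower in C2-Epi than in C1 (log2 -3.23 ± 0.67 (SE), edgeR adjusted p = 0.0028). In sgEED-Epi it was higher than in sgControl (log2 1.58 ± 0.42 (SE), edgeR adjusted p = 0.0069). The MEG8 call for sgEED-Epi was lost without sgControl replicate 2 (adjusted p = 0.079). The MEG8 log2 change for sgEED-Epi was 0.93 after GC and length correction and 2.6 without sgControl replicate 1. Per kilobase, the ratio of MEG3 to MEG8 ran from 14.6 to 45.4 over the libraries. It was 43.4 and 44.4 in sgKMT2D-Mes and 17.5 and 17.7 in sgEED-Mes. MEG8 shares 1565 bases, 14.09% of its exons, on the same strand with AL117190.1, which had 317 counts over all libraries. The paternally read genes of the cluster were at or near 0: DLK1 had 1 count over all libraries and DIO3 had 0. RTL1 had 11 and 8 counts in sgEED-Mes and 0 in the other libraries, which is at least 3.42-fold above sgEED-Epi with a floor of 3 counts per library. RTL1 exons overlap 5 microRNA genes on the opposite strand, MIR127, MIR136, MIR431, MIR432 and MIR433, which had 5 counts in all. BEGAIN, the gene next to this cluster, went from 0.596 ± 0.341 to 5.91 ± 0.370 CPM in the KMT2D lineage (mean ± SD, n = 2; log2 3.32 ± 0.56 (SE), edgeR adjusted p = 0.00025). It did not pass in the C2 lineage (log2 -0.17 ± 0.46 (SE), edgeR adjusted p = 0.81) or the EED lineage (log2 1.22 ± 0.51 (SE), edgeR adjusted p = 0.08). The BEGAIN change in the C2 lineage was called without C2-Mes replicate 2 (adjusted p = 0.00075). The BEGAIN value in the C2 lineage was 0.39 without C2-Mes replicate 1 (adjusted p = 0.24). The BEGAIN change in the EED lineage was called with no filter on low counts (adjusted p = 0.0017), after GC and length correction (adjusted p = 0.019) and in a fit of the compared libraries alone (adjusted p = 0.022).

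**Figure D3:**
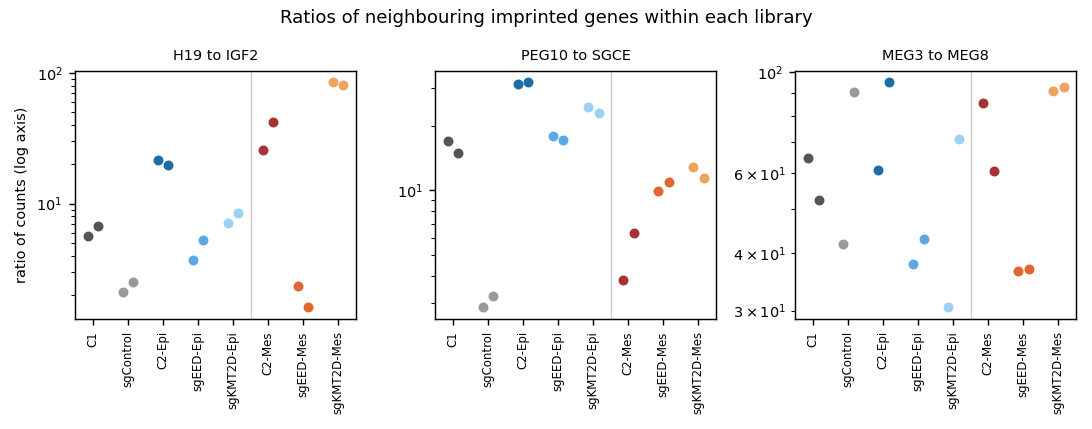
Ratio of the counts of 2 neighbouring imprinted genes within each library, on log axes, with 2 points per group and a grey line between epithelial and mesenchymal groups. The ratio of H19 to IGF2 is 85.6 and 81.2 in sgKMT2D-Mes and 2.36 and 1.61 in sgEED-Mes, and that of PEG10 to SGCE is 2.86 and 3.21 in sgControl and 31.2 and 32.0 in C2-Epi.

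PEG10 and SGCE start from a shared region on chromosome 7 and are both read from the paternal copy. PEG10 (ENSG00000242265, chromosome 7, 94656325 to 94669695, plus strand) derives from a retrotransposon and is needed for the placenta. SGCE (ENSG00000127990, chromosome 7, 94524204 to 94656572, minus strand) encodes epsilon-sarcoglycan of the cell membrane. PEG10 was among the most abundant members, at 665 and 593 CPM in C1, 112 and 100.3 in sgControl, 1242 and 1226 in C2-Epi, 896 and 946 in sgEED-Epi and 1256 and 1124 in sgKMT2D-Epi. The mesenchymal values were 222 and 488 CPM in C2-Mes, 701 and 919 in sgEED-Mes and 1392 and 1295 in sgKMT2D-Mes. Its sgControl libraries were below all others. PEG10 fell from C2-Epi to C2-Mes (log2 -1.80 ± 0.27 (SE), edgeR adjusted p = 0.00011) and passed no test in the EED lineage (log2 -0.18 ± 0.26 (SE), edgeR adjusted p = 0.63) or the KMT2D lineage (log2 0.18 ± 0.26 (SE), edgeR adjusted p = 0.6). The PEG10 value in the EED lineage was -0.05 without sgEED-Mes replicate 1 (adjusted p = 0.93). The PEG10 change in the KMT2D lineage was called in a fit of the compared libraries alone (adjusted p = 0.048). The PEG10 value in the KMT2D lineage was 0.09 with no filter on low counts (adjusted p = 0.83), 0.02 without sgKMT2D-Epi replicate 2 (adjusted p = 0.99) and 0.05 without sgKMT2D-Mes replicate 1 (adjusted p = 0.93). PEG10 was lower in sgControl than in C1 (log2 -2.57 ± 0.27 (SE), edgeR adjusted p = 3.6e-05), and higher in C2-Epi than in C1 (log2 0.97 ± 0.26 (SE), edgeR adjusted p = 0.013). The PEG10 call for C2-Epi was lost without C1 replicate 2 (adjusted p = 0.065). Against sgControl it was higher in sgEED-Epi (log2 3.12 ± 0.28 (SE), edgeR adjusted p = 2e-06) and in sgKMT2D-Epi (log2 3.49 ± 0.29 (SE), edgeR adjusted p = 6.3e-07). The PEG10 call for sgEED-Epi was lost against C1 alone (adjusted p = 0.14). The PEG10 log2 change for sgEED-Epi was 1.83 against C1 and sgControl together. The PEG10 log2 change for sgKMT2D-Epi was 0.92 against C1 alone and 2.20 against C1 and sgControl together. So the size of both guide differences rests on which control is used.

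SGCE stood at 39.4 and 39.6 CPM in C1, 39.1 and 31.3 in sgControl, 39.7 and 38.3 in C2-Epi, 49.8 and 55.0 in sgEED-Epi and 51.6 and 49.2 in sgKMT2D-Epi. The mesenchymal libraries held 57.9 and 76.6 CPM in C2-Mes, 70.2 and 84.5 in sgEED-Mes and 109 and 113 in sgKMT2D-Mes, all above the epithelial libraries. It rose in the C2 lineage (log2 0.79 ± 0.16 (SE), edgeR adjusted p = 0.0014), the EED lineage (log2 0.56 ± 0.16 (SE), edgeR adjusted p = 0.014) and the KMT2D lineage (log2 1.14 ± 0.16 (SE), edgeR adjusted p = 5.1e-05). The SGCE call in the C2 lineage was lost after GC and length correction (adjusted p = 0.076) and in a fit of the compared libraries alone (adjusted p = 0.064). The SGCE call in the EED lineage was lost after GC and length correction (adjusted p = 0.43), in a fit of the compared libraries alone (adjusted p = 0.073), without sgEED-Epi replicate 1 (adjusted p = 0.081) and without sgEED-Mes replicate 2 (adjusted p = 0.1). Against sgControl it was higher in sgEED-Epi (log2 0.57 ± 0.16 (SE), edgeR adjusted p = 0.0098) and sgKMT2D-Epi (log2 0.52 ± 0.16 (SE), edgeR adjusted p = 0.015). The SGCE call for sgEED-Epi was lost against C1 alone (adjusted p = 0.08) and without sgControl replicate 2 (adjusted p = 0.058). The SGCE change for sgEED-Epi turned to -0.21 after GC and length correction (adjusted p = 0.54). The SGCE call for sgKMT2D-Epi was lost against C1 alone (adjusted p = 0.1) and without sgControl replicate 2 (adjusted p = 0.059). The SGCE change for sgKMT2D-Epi turned to -0.56 after GC and length correction (adjusted p = 0.098). The 2 genes of the shared start thus differed in their changes: the count ratio of PEG10 to SGCE went from 31.2 and 32.0 in C2-Epi to 3.84 and 6.36 in C2-Mes, from 18.0 and 17.2 in sgEED-Epi to 9.99 and 10.9 in sgEED-Mes, and from 24.4 and 22.9 in sgKMT2D-Epi to 12.8 and 11.4 in sgKMT2D-Mes. Their exons share 219 bases on opposite strands.

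PPP1R9A, a neighbour that encodes the actin-binding protein neurabin, was low: 0 and 0.164 CPM in C1, 0 and 0 in sgControl, 0.0361 and 0 in C2-Epi, 3.58 and 2.39 in sgEED-Epi and 0.567 and 0.398 in sgKMT2D-Epi. Mesenchymal libraries held 1.52 and 0.511 CPM in C2-Mes, 0.399 and 0.132 in sgEED-Mes and 1.92 and 2.06 in sgKMT2D-Mes. The sgEED-Epi libraries were the highest and those of sgControl had no counts. The level in sgEED-Epi was at least 23.5-fold above sgControl and that in sgKMT2D-Epi at least 3.80-fold, with a floor of 3 counts per library. PPP1R9A fell in the EED lineage (log2 -3.41 ± 0.62 (SE), edgeR adjusted p = 0.00081) and rose in the KMT2D lineage (log2 2.02 ± 0.58 (SE), edgeR adjusted p = 0.011). The PPP1R9A call in the KMT2D lineage was lost when any of the 4 libraries was left out (adjusted p = 0.054 to 0.1). In the C2 lineage the counts went from 1 to 42 over both libraries, a ratio of 46.6 (95% exact interval 7.92 to 1880, counting error only). TFPI2, a protease inhibitor gene on the other side of this cluster, rose in the C2 lineage (log2 2.55 ± 0.62 (SE), edgeR adjusted p = 0.0047) and the KMT2D lineage (log2 2.23 ± 0.50 (SE), edgeR adjusted p = 0.0022) and fell in the EED lineage (log2 -1.92 ± 0.45 (SE), edgeR adjusted p = 0.004), the same signs as PPP1R9A. The TFPI2 call in the C2 lineage was lost in a fit of the compared libraries alone (adjusted p = 0.11), without C2-Epi replicate 1 (adjusted p = 0.05) and without C2-Mes replicate 1 (adjusted p = 0.086). The TFPI2 call in the EED lineage was lost without sgEED-Mes replicate 1 (adjusted p = 0.057).

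MEST, also called PEG1, encodes a hydrolase-fold protein read from the paternal copy (ENSG00000106484, chromosome 7, 130486171 to 130506465, plus strand). COPG2, on the opposite strand, encodes a coat protein of transport vesicles. The MEST window is RefSeq, GRCh38.p14, chr7:130491835-130492134, plus strand, with TGCCGC in capitals, the hexamer that the imprint-protecting protein ZFP57 binds when it is methylated. On both strands it begins at positions 251, 255 and 286, and the first 2 matches overlap. At least 1 match occurs in 16.7% of the 35116 windows, and the share with 2 or more was not counted. The window holds 25 CpGs and is shown, with 2 further windows below, because the levels of these members differed widely between groups. All 3 were also chosen for holding 2 or more matches, counting both strands, so their matches do not show that the hexamer is frequent among the members. The MEST window is 1 of 5 in that table, which hold 1, 1, 0, 2 and 3 hexamers, and was chosen as the one with the most.
MEST: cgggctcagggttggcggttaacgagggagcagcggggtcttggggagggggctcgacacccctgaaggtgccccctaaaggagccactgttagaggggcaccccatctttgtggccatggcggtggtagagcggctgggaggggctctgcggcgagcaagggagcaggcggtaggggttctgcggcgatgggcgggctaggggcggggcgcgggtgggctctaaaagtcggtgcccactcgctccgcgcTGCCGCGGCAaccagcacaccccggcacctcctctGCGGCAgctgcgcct

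MEST stood at 85.5 and 78.8 CPM in C1, 54.0 and 56.9 in sgControl, 56.8 and 56.6 in C2-Epi, 163 and 193 in sgEED-Epi and 114 and 121 in sgKMT2D-Epi. The mesenchymal levels were 6.95 and 15.2 CPM in C2-Mes, 212 and 246 in sgEED-Mes and 63.5 and 61.4 in sgKMT2D-Mes. The C2-Mes libraries were the lowest of all and the sgEED-Mes libraries the highest. MEST fell from C2-Epi to C2-Mes (log2 -2.33 ± 0.25 (SE), edgeR adjusted p = 5.3e-06) and from sgKMT2D-Epi to sgKMT2D-Mes (log2 -0.92 ± 0.24 (SE), edgeR adjusted p = 0.0056), and gave log2 0.37 ± 0.24 (SE), edgeR adjusted p = 0.26 in the EED lineage. The MEST value in the EED lineage was 0.23 without sgEED-Epi replicate 1 (adjusted p = 0.6) and 0.22 without sgEED-Mes replicate 2 (adjusted p = 0.61). It was higher in sgEED-Epi than in sgControl (log2 1.68 ± 0.24 (SE), edgeR adjusted p = 8.7e-05) and in sgKMT2D-Epi than in sgControl (log2 1.09 ± 0.24 (SE), edgeR adjusted p = 0.0017). The MEST log2 change for sgEED-Epi was 1.11 against C1 alone. The MEST call for sgKMT2D-Epi was lost against C1 alone (adjusted p = 0.098). The change in the EED lineage exceeded that in the C2 lineage by 2.7 ± 0.34 on the log2 scale (edgeR adjusted p = 6.4e-05). COPG2 varied less, at 68.9 and 63.8 CPM in C1, 74.7 and 85.3 in sgControl, 67.6 and 67.7 in C2-Epi, 45.4 and 56.7 in sgEED-Epi and 41.5 and 42.4 in sgKMT2D-Epi. Among mesenchymal cells COPG2 was at 48.2 and 52.2 CPM in C2-Mes, 45.3 and 46.1 in sgEED-Mes and 47.6 and 47.9 in sgKMT2D-Mes. It was lower in sgKMT2D-Epi than in sgControl (log2 -0.93 ± 0.14 (SE), edgeR adjusted p = 6.9e-05) and in sgEED-Epi than in sgControl (log2 -0.65 ± 0.14 (SE), edgeR adjusted p = 0.0014). The COPG2 call for sgEED-Epi was lost against C1 alone (adjusted p = 0.056). The COPG2 log2 change for sgEED-Epi was -1.07 after GC and length correction. Per kilobase, the ratio of MEST to COPG2 was 0.13 and 0.25 in C2-Mes and 4.05 and 4.61 in sgEED-Mes. KLF14, a transcription factor gene of the same cluster, had 9 counts over all libraries, all in sgEED-Epi and sgEED-Mes. MEST and COPG2 exons share 228 bases on opposite strands.

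NAP1L5, of the nucleosome assembly family, and DIRAS3, which encodes a RAS-like protein that restrains growth and is often lost in breast and ovarian cancer, are paternally read genes outside large clusters. Their windows are RefSeq, GRCh38.p14, chr4:88697780-88698079, minus strand for NAP1L5 and chr1:68050578-68050877, minus strand for DIRAS3, with TGCCGC on either strand in capitals. It begins at positions 174 and 239 of the first and at 264 and 268, overlapping, of the second. They hold 18 and 21 CpGs.
NAP1L5: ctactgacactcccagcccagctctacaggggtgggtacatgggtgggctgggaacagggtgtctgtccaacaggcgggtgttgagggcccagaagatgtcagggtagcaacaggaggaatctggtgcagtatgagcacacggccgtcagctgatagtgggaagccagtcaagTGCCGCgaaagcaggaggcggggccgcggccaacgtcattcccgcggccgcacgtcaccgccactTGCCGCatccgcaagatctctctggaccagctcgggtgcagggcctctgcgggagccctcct
DIRAS3: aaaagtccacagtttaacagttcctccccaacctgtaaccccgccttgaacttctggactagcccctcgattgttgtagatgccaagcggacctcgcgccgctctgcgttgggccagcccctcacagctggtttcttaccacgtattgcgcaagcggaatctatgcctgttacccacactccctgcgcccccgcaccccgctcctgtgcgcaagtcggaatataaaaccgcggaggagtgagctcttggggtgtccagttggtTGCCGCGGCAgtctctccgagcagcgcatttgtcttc

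NAP1L5 stood at 3.61 and 3.72 CPM in C1, 1.34 and 1.71 in sgControl, 2.64 and 1.77 in C2-Epi, 5.10 and 5.30 in sgEED-Epi and 6.70 and 5.97 in sgKMT2D-Epi. In mesenchymal libraries it stood at 13.1 and 15.3 CPM in C2-Mes, 5.73 and 11.2 in sgEED-Mes and 17.5 and 17.6 in sgKMT2D-Mes. sgControl was the lowest group. NAP1L5 rose in the C2 lineage (log2 2.69 ± 0.29 (SE), edgeR adjusted p = 4.2e-06) and the KMT2D lineage (log2 1.47 ± 0.26 (SE), edgeR adjusted p = 0.00038), with log2 0.69 ± 0.27 (SE), edgeR adjusted p = 0.057 in the EED lineage. Against sgControl it was higher in sgEED-Epi (log2 1.76 ± 0.30 (SE), edgeR adjusted p = 0.00034) and sgKMT2D-Epi (log2 2.05 ± 0.30 (SE), edgeR adjusted p = 7.4e-05), and it was lower in sgControl than in C1 (log2 -1.26 ± 0.31 (SE), edgeR adjusted p = 0.0094). The NAP1L5 call for sgEED-Epi was lost against C1 alone (adjusted p = 0.21). The NAP1L5 log2 change for sgEED-Epi was 1.13 against C1 and sgControl together. The NAP1L5 log2 change for sgKMT2D-Epi was 0.79 against C1 alone. The NAP1L5 call for sgControl was lost without sgControl replicate 1 (adjusted p = 0.071). The NAP1L5 change in the EED lineage was called in the DESeq2 Wald test (adjusted p = 0.044), after GC and length correction (adjusted p = 0.031) and without sgEED-Mes replicate 1 (adjusted p = 0.0032). The NAP1L5 value in the EED lineage was 0.11 without sgEED-Mes replicate 2 (adjusted p = 0.78).

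DIRAS3 stood at 0.594 and 0.327 CPM in C1, 0 and 0.171 in sgControl, 1.26 and 1.11 in C2-Epi, 0.343 and 0.526 in sgEED-Epi and 0.319 and 0.199 in sgKMT2D-Epi. Mesenchymal levels were 7.25 and 25.5 CPM in C2-Mes, 1.09 and 1.76 in sgEED-Mes and 4.18 and 4.46 in sgKMT2D-Mes. The highest library was C2-Mes replicate 2, and the epithelial libraries of the C1 background were all below 1 CPM. DIRAS3 rose in the C2 lineage (log2 3.79 ± 0.54 (SE), edgeR adjusted p = 7.4e-05) and the KMT2D lineage (log2 4.02 ± 0.67 (SE), edgeR adjusted p = 0.00022). In the EED lineage it did not pass (log2 1.68 ± 0.66 (SE), edgeR adjusted p = 0.064). The DIRAS3 change in the EED lineage was called with no filter on low counts (adjusted p = 0.00031), in the DESeq2 Wald test (adjusted p = 0.017), after GC and length correction (adjusted p = 0.044) and in a fit of the compared libraries alone (adjusted p = 0.025). WLS, a gene beside DIRAS3 that carries Wnt proteins to the cell surface, rose in the C2 lineage (log2 3.11 ± 0.15 (SE), edgeR adjusted p = 1.2e-09) and the KMT2D lineage (log2 1.25 ± 0.14 (SE), edgeR adjusted p = 5.3e-06) and gave log2 0.33 ± 0.14 (SE), edgeR adjusted p = 0.077 in the EED lineage. The WLS change in the EED lineage was called in the DESeq2 Wald test (adjusted p = 0.028), after GC and length correction (adjusted p = 0.048) and without sgEED-Mes replicate 2 (adjusted p = 0.029). The WLS value in the EED lineage was 0.18 without sgEED-Epi replicate 1 (adjusted p = 0.44) and 0.13 without sgEED-Mes replicate 1 (adjusted p = 0.54).

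**Figure D4:**
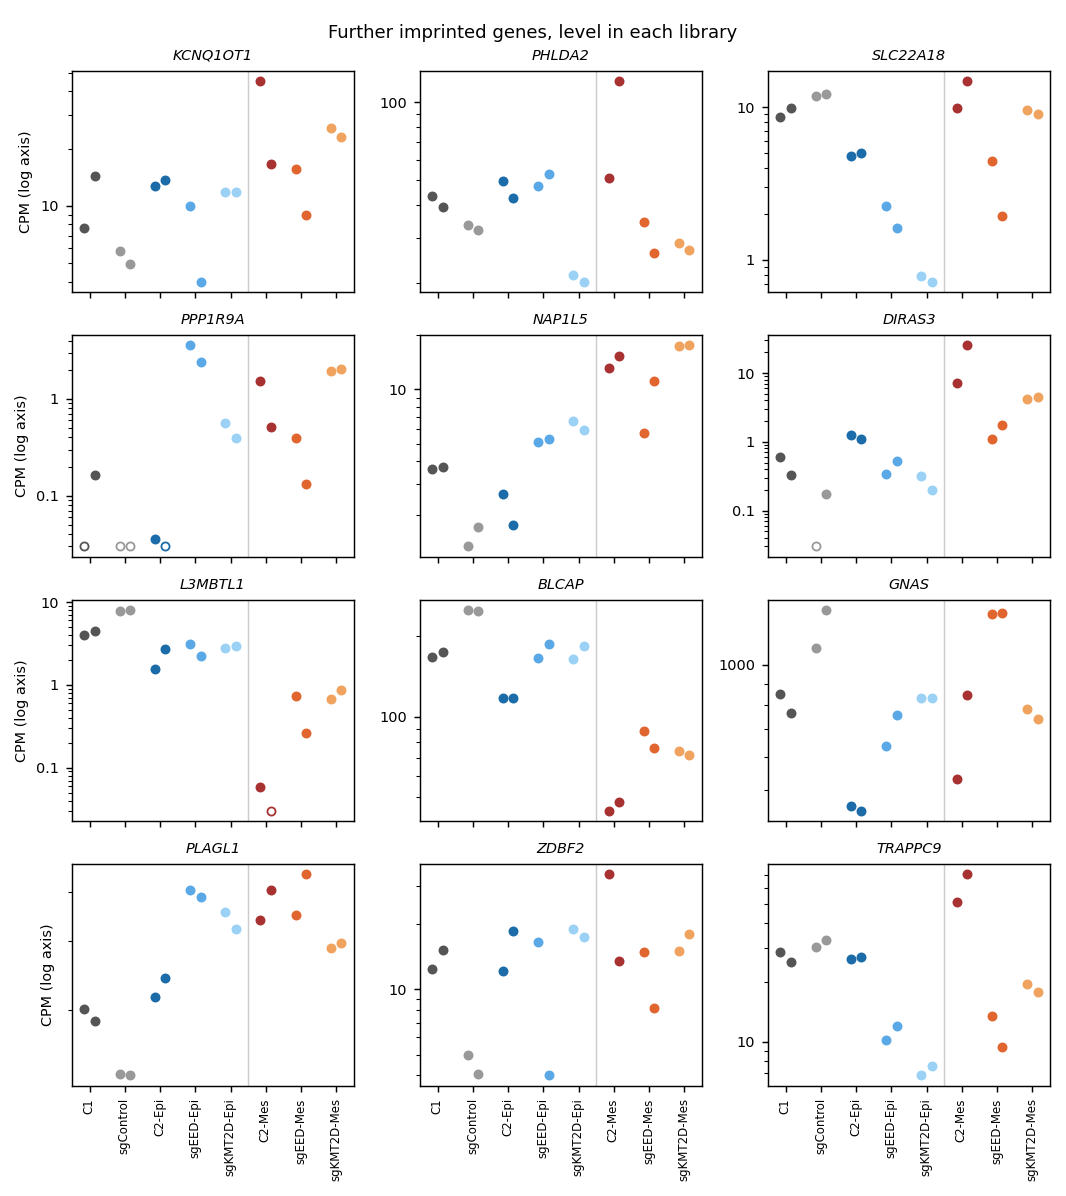
CPM of 12 further imprinted genes in each of the 16 libraries, on log axes, with 2 points per group and a grey line between epithelial and mesenchymal groups. Open circles at 0.03 mark libraries with 0 counts. SLC22A18 is lowest in sgKMT2D-Epi (0.780 and 0.717) and L3MBTL1 in C2-Mes (0.0584 and 0).

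On chromosome 20, L3MBTL1 and BLCAP fell in all 3 lineages. L3MBTL1, which encodes a chromatin-compacting protein with MBT repeats (ENSG00000185513, chromosome 20, 43489442 to 43550950, plus strand), stood at 3.99 and 4.46 CPM in C1, 7.85 and 8.10 in sgControl, 1.55 and 2.73 in C2-Epi, 3.08 and 2.21 in sgEED-Epi and 2.80 and 2.95 in sgKMT2D-Epi. The mesenchymal groups held L3MBTL1 at 0.0584 and 0 CPM in C2-Mes, 0.726 and 0.264 in sgEED-Mes and 0.669 and 0.875 in sgKMT2D-Mes. All 6 mesenchymal libraries were below all 10 epithelial ones. The C2-Epi libraries had 114 counts and the C2-Mes libraries 1, a ratio of 103 (95% exact interval 18.1 to 4100, counting error only). It fell in the EED lineage (log2 -2.36 ± 0.41 (SE), edgeR adjusted p = 0.00044) and the KMT2D lineage (log2 -1.89 ± 0.39 (SE), edgeR adjusted p = 0.0011), and in the C2 lineage the edgeR adjusted p was 8.6e-06. Against sgControl it was lower in sgEED-Epi (log2 -1.59 ± 0.33 (SE), edgeR adjusted p = 0.0013) and sgKMT2D-Epi (log2 -1.47 ± 0.33 (SE), edgeR adjusted p = 0.0018). The L3MBTL1 call for sgEED-Epi was lost against C1 alone (adjusted p = 0.16). The L3MBTL1 call for sgKMT2D-Epi was lost against C1 alone (adjusted p = 0.2).

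BLCAP, which encodes a small membrane protein and surrounds NNAT (ENSG00000166619, chromosome 20, 37492472 to 37527931, minus strand), stood at 168 and 175 CPM in C1, 252 and 249 in sgControl, 117 and 117 in C2-Epi, 166 and 188 in sgEED-Epi and 165 and 183 in sgKMT2D-Epi. Its mesenchymal levels were 44.2 and 47.8 CPM in C2-Mes, 88.5 and 75.8 in sgEED-Mes and 74.3 and 72.0 in sgKMT2D-Mes, again below every epithelial library. BLCAP fell in the C2 lineage (log2 -1.35 ± 0.13 (SE), edgeR adjusted p = 1.5e-06), the EED lineage (log2 -1.11 ± 0.13 (SE), edgeR adjusted p = 1.2e-05) and the KMT2D lineage (log2 -1.25 ± 0.13 (SE), edgeR adjusted p = 2.6e-06). BLCAP was higher in sgControl than in C1 (log2 0.55 ± 0.13 (SE), edgeR adjusted p = 0.0067) and lower than in sgControl in sgEED-Epi (log2 -0.50 ± 0.13 (SE), edgeR adjusted p = 0.0052) and sgKMT2D-Epi (log2 -0.52 ± 0.13 (SE), edgeR adjusted p = 0.0031). The BLCAP call for sgControl was lost without C1 replicate 1 (adjusted p = 0.061). The BLCAP call for sgEED-Epi was lost against C1 and sgControl together (adjusted p = 0.12) and without sgEED-Epi replicate 1 (adjusted p = 0.057). The BLCAP change for sgEED-Epi turned to 0.05 against C1 alone (adjusted p = 0.83). The BLCAP call for sgKMT2D-Epi was lost after GC and length correction (adjusted p = 0.068), against C1 and sgControl together (adjusted p = 0.07) and without sgKMT2D-Epi replicate 1 (adjusted p = 0.065). The BLCAP change for sgKMT2D-Epi turned to 0.02 against C1 alone (adjusted p = 0.91). NNAT had 2 counts over all libraries. GNAS, which encodes the stimulatory G protein alpha subunit and imprinted variants from other promoters (ENSG00000087460, chromosome 20, 58839718 to 58911192, plus strand), was abundant at 852 and 768 CPM in C1, 1100 and 1358 in sgControl, 458.1 and 446 in C2-Epi, 638 and 757 in sgEED-Epi and 835 and 833 in sgKMT2D-Epi. Mesenchymal libraries held 533 and 845 CPM in C2-Mes, 1329 and 1333 in sgEED-Mes and 783 and 739.7 in sgKMT2D-Mes. It rose in the EED lineage (log2 0.93 ± 0.18 (SE), edgeR adjusted p = 0.0012) and in the C2 lineage (log2 0.61 ± 0.18 (SE), edgeR adjusted p = 0.017), and gave log2 -0.13 ± 0.18 (SE), edgeR adjusted p = 0.58 in the KMT2D lineage. The GNAS call in the C2 lineage was lost after GC and length correction (adjusted p = 0.05), in a fit of the compared libraries alone (adjusted p = 0.18) and without any 1 of C2-Epi replicate 1, C2-Epi replicate 2 and C2-Mes replicate 2 (adjusted p = 0.11 to 0.31). The GNAS change in the KMT2D lineage was called in a fit of the compared libraries alone (adjusted p = 0.049). GNAS was lower in C2-Epi than in C1 (log2 -0.84 ± 0.18 (SE), edgeR adjusted p = 0.004) and lower in sgEED-Epi than in sgControl (log2 -0.82 ± 0.18 (SE), edgeR adjusted p = 0.0024). The GNAS call for C2-Epi was lost after GC and length correction (adjusted p = 0.059), without C1 replicate 1 (adjusted p = 0.052) and without C2-Epi replicate 2 (adjusted p = 0.052). The GNAS call for sgEED-Epi was lost against C1 alone (adjusted p = 0.43). The GNAS log2 change for sgEED-Epi was -0.52 against C1 and sgControl together. Counts per gene do not separate the GNAS variants.

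PLAGL1, a zinc finger transcription factor of transient neonatal diabetes, stood at 20.1 and 18.7 CPM in C1, 13.6 and 13.5 in sgControl, 21.5 and 24.2 in C2-Epi, 40.7 and 38.9 in sgEED-Epi and 35.6 and 32.2 in sgKMT2D-Epi. In mesenchymal cells PLAGL1 was at 34.1 and 40.5 CPM in C2-Mes, 34.9 and 44.5 in sgEED-Mes and 28.9 and 29.6 in sgKMT2D-Mes. It was higher in sgEED-Epi than in sgControl (log2 1.55 ± 0.16 (SE), edgeR adjusted p = 4.2e-06) and in sgKMT2D-Epi than in sgControl (log2 1.32 ± 0.16 (SE), edgeR adjusted p = 1.1e-05). The PLAGL1 log2 change for sgKMT2D-Epi was 0.81 against C1 alone. In the transitions it rose in the C2 lineage (log2 0.71 ± 0.15 (SE), edgeR adjusted p = 0.0019). The PLAGL1 call in the C2 lineage was lost in a fit of the compared libraries alone (adjusted p = 0.067) and without C2-Epi replicate 1 (adjusted p = 0.051). TRAPPC9, a subunit of a vesicle-tethering complex, stood at 28.6 and 25.5 CPM in C1, 30.3 and 32.7 in sgControl, 26.3 and 26.9 in C2-Epi, 10.2 and 12 in sgEED-Epi and 6.77 and 7.53 in sgKMT2D-Epi. The mesenchymal groups held TRAPPC9 at 51.0 and 70.6 CPM in C2-Mes, 13.5 and 9.46 in sgEED-Mes and 19.7 and 17.8 in sgKMT2D-Mes. The guide lines in both states lay below all other groups. TRAPPC9 was lower than in sgControl in sgEED-Epi (log2 -1.5 ± 0.20 (SE), edgeR adjusted p = 3.7e-05) and sgKMT2D-Epi (log2 -2.14 ± 0.20 (SE), edgeR adjusted p = 1.7e-06), and rose in the C2 lineage (log2 1.19 ± 0.19 (SE), edgeR adjusted p = 0.00018) and the KMT2D lineage (log2 1.39 ± 0.20 (SE), edgeR adjusted p = 5.6e-05).

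ZDBF2, a zinc finger gene of chromosome 2, stood at 12.5 and 15.2 CPM in C1, 4.99 and 4.07 in sgControl, 12.2 and 18.6 in C2-Epi, 16.5 and 4.0 in sgEED-Epi and 18.9 and 17.5 in sgKMT2D-Epi. Its mesenchymal levels were 34.1 and 13.6 CPM in C2-Mes, 14.8 and 8.23 in sgEED-Mes and 15.1 and 17.9 in sgKMT2D-Mes. The 2 libraries of sgEED-Epi and of C2-Mes lay far apart, and replicate 1 was the higher in both, as it was for KCNQ1OT1. ZDBF2 was higher in sgKMT2D-Epi than in sgControl (log2 2.01 ± 0.56 (SE), edgeR adjusted p = 0.0078). The ZDBF2 call for sgKMT2D-Epi was lost after GC and length correction (adjusted p = 0.21), against C1 alone (adjusted p = 0.58) and without sgControl replicate 2 (adjusted p = 0.063). The ZDBF2 log2 change for sgKMT2D-Epi was 1.20 against C1 and sgControl together. Its neighbours ADAM23, a cell-adhesion gene, and GPR1, a chemerin receptor gene, rose in all 3 lineages. ADAM23 changed by 4.5 ± 0.30, adjusted p = 2.9e-08, by 1.5 ± 0.22, adjusted p = 9.2e-05 and by 1.51 ± 0.22, adjusted p = 6.6e-05. GPR1 changed by 6.11 ± 0.27, adjusted p = 7.3e-10, by 2.53 ± 0.19, adjusted p = 1.6e-07 and by 3.20 ± 0.20, adjusted p = 1.7e-08 (log2 ± SE, edgeR, in the C2, EED and KMT2D lineages).

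NAA60, an acetyltransferase gene, stood at 34.0 and 30.7 CPM in C1, 37.5 and 33.8 in sgControl, 21.9 and 19.5 in C2-Epi, 21.2 and 26.0 in sgEED-Epi and 13.3 and 18.2 in sgKMT2D-Epi. In mesenchymal cells NAA60 was at 17.0 and 30.6 CPM in C2-Mes, 30.5 and 27.0 in sgEED-Mes and 30.6 and 28.2 in sgKMT2D-Mes. It was lower in sgKMT2D-Epi than in sgControl (log2 -1.18 ± 0.24 (SE), edgeR adjusted p = 0.00079) and rose in the KMT2D lineage (log2 0.91 ± 0.24 (SE), edgeR adjusted p = 0.0055). The NAA60 log2 change for sgKMT2D-Epi was -0.54 after GC and length correction. The NAA60 call in the KMT2D lineage was lost without sgKMT2D-Epi replicate 1 (adjusted p = 0.087). ZNF597, the zinc finger gene beside it, stood at 5.81 and 5.52 CPM in C1, 5.71 and 4.37 in sgControl, 6.72 and 5.96 in C2-Epi, 5.75 and 5.54 in sgEED-Epi and 8.01 and 7.29 in sgKMT2D-Epi. The mesenchymal groups held ZNF597 at 7.77 and 4.12 CPM in C2-Mes, 4.83 and 5.81 in sgEED-Mes and 4.52 and 5.51 in sgKMT2D-Mes. ZNF597 was called in none of the 7 pairwise comparisons, and KCNQ1OT1 likewise. FAM50B, a retrotransposed copy of an X-linked gene, stood at 4.75 and 4.79 CPM in C1, 3.94 and 3.90 in sgControl, 1.73 and 2.04 in C2-Epi, 4.04 and 5.23 in sgEED-Epi and 1.81 and 2.27 in sgKMT2D-Epi. Its mesenchymal levels were 1.58 and 2.84 CPM in C2-Mes, 3.77 and 3.17 in sgEED-Mes and 5.69 and 3.76 in sgKMT2D-Mes. It was lower in C2-Epi than in C1 (log2 -1.34 ± 0.29 (SE), edgeR adjusted p = 0.0035) and rose in the KMT2D lineage (log2 1.22 ± 0.29 (SE), edgeR adjusted p = 0.0028). The FAM50B log2 change for C2-Epi was -0.78 after GC and length correction. The FAM50B call in the KMT2D lineage was lost without sgKMT2D-Mes replicate 1 (adjusted p = 0.063). INPP5F, an inositol phosphatase gene, ran from 19.1 to 36.5 CPM over the epithelial libraries, at 30.7 and 29.1 CPM in C1, 26.9 and 19.1 in sgControl, 36.3 and 36.5 in C2-Epi, 35.8 and 33.1 in sgEED-Epi and 27.8 and 27.5 in sgKMT2D-Epi. Its mesenchymal levels were 25.5 and 27.8 CPM in C2-Mes, 25.1 and 31.6 in sgEED-Mes and 29.4 and 31.7 in sgKMT2D-Mes, within that range. INPP5F was higher in sgEED-Epi than in sgControl (log2 0.58 ± 0.17 (SE), edgeR adjusted p = 0.011) and fell in the C2 lineage (log2 -0.45 ± 0.17 (SE), edgeR adjusted p = 0.047). The INPP5F call for sgEED-Epi was lost after GC and length correction (adjusted p = 0.77), against C1 alone (adjusted p = 0.41), without sgControl replicate 2 (adjusted p = 0.086) and without sgEED-Epi replicate 1 (adjusted p = 0.052). The INPP5F call in the C2 lineage was lost in a fit of the compared libraries alone (adjusted p = 0.15), without C2-Epi replicate 1 (adjusted p = 0.068) and without C2-Epi replicate 2 (adjusted p = 0.083).

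**Figure D5:**
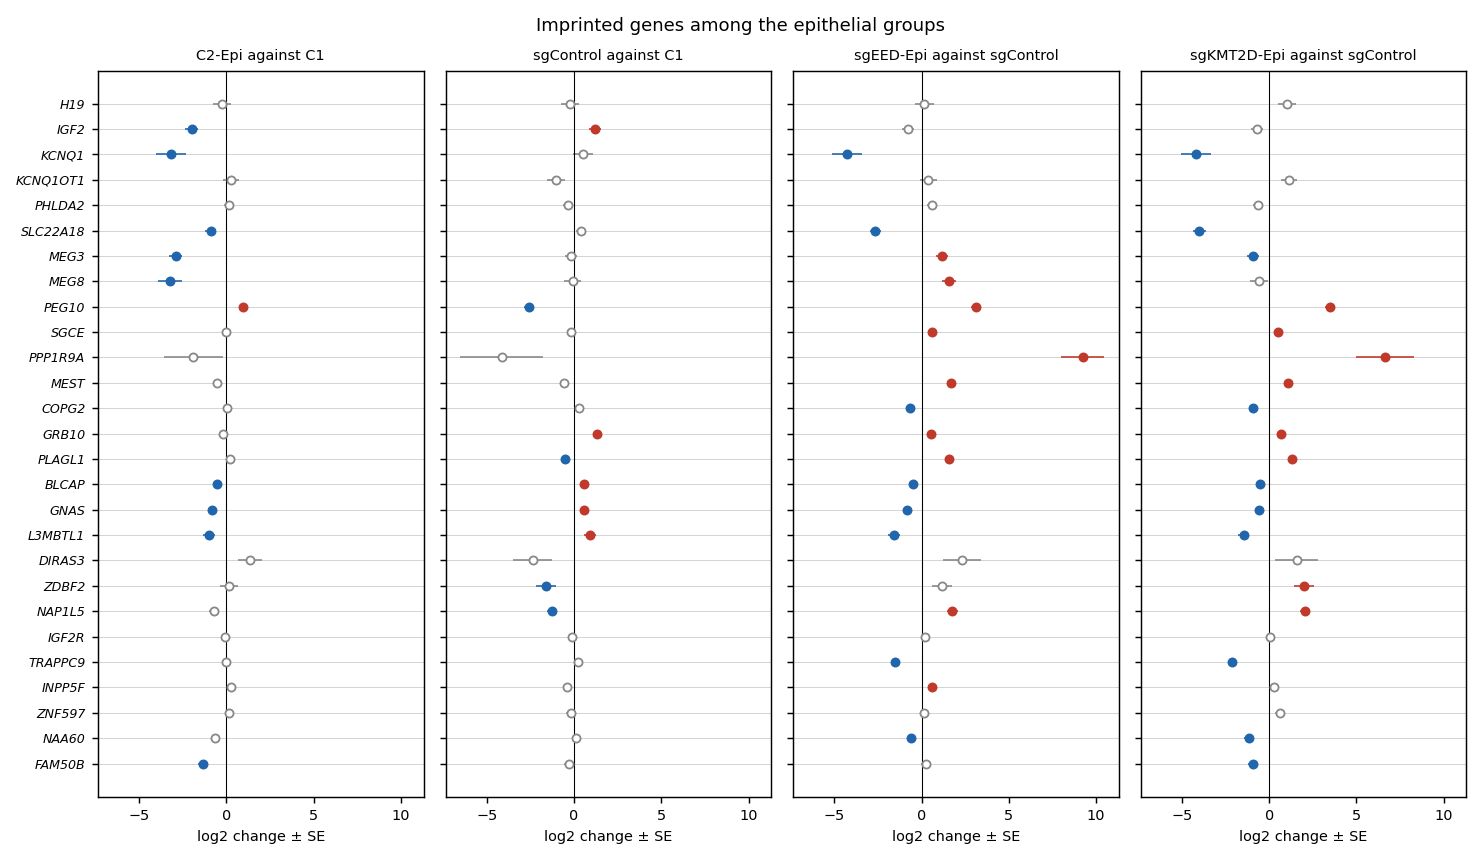
Log2 difference of the 27 tested members between epithelial groups, with the standard error as a bar. Red points were higher and blue points lower in the group named first at an adjusted p under 0.05, and open grey points did not pass: 1, 5, 10 and 8 members are red and 9, 4, 8 and 10 are blue, and PEG10 lies at -2.57 in sgControl against C1 and at 3.12 and 3.49 in the guide lines against sgControl.

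The 9 untested members had at most 11 counts in any library. DIO3, ZIM2 and AIRN had 0 counts in all 16 libraries, PEG3, KCNK9 and NNAT had 3, 3 and 2 counts in all, and DLK1 had 1. For these genes a count of 0 allows up to 3 counts, or 0.0958 to 0.175 CPM depending on the library, so any expression was below that level in the libraries at 0. PEG3 and ZIM2, imprinted neighbours on chromosome 19, share 1264 bases of exon on the same strand.

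Genes that write, protect, read or erase imprints were taken from a list of 30, of which 25 were tested. In the C2 lineage 0 rose, 5 fell and 20 did not pass, in the EED lineage 3 rose, 4 fell and 18 did not pass, and in the KMT2D lineage 2 rose, 11 fell and 12 did not pass. The shares called were 20.0%, 28.0% and 52.0%, against 39.6%, 36.5% and 50.8% of all genes tested, so at most near the background. The medians were 0.01, -0.09 and -0.45. EED, which is also the targeted gene of the sgEED lines, fell in the C2 lineage (log2 -0.67 ± 0.15 (SE), edgeR adjusted p = 0.0023), the EED lineage (log2 -2.39 ± 0.16 (SE), edgeR adjusted p = 3.8e-08) and the KMT2D lineage (log2 -0.73 ± 0.14 (SE), edgeR adjusted p = 0.00076). The EED call in the C2 lineage was lost in a fit of the compared libraries alone (adjusted p = 0.075). The EED call in the KMT2D lineage was lost after GC and length correction (adjusted p = 0.097). DNMT3A, a de novo DNA methyltransferase, rose in the KMT2D lineage (log2 1.52 ± 0.16 (SE), edgeR adjusted p = 2.4e-06) and the EED lineage (log2 0.73 ± 0.15 (SE), edgeR adjusted p = 0.0017). Its relative DNMT3B fell in the KMT2D lineage (log2 -1.40 ± 0.18 (SE), edgeR adjusted p = 2.4e-05). KDM1B, a histone demethylase needed to set maternal imprints, fell in the KMT2D lineage (log2 -1.48 ± 0.21 (SE), edgeR adjusted p = 4.7e-05) and the EED lineage (log2 -0.86 ± 0.20 (SE), edgeR adjusted p = 0.004), and so did ZNF202, a zinc finger gene (log2 -0.89 ± 0.19 (SE), edgeR adjusted p = 0.0014 and -0.95 ± 0.19, adjusted p = 0.0012). HELLS, a chromatin remodeller of DNA methylation, fell in the KMT2D lineage (log2 -0.90 ± 0.24 (SE), edgeR adjusted p = 0.0065). The HELLS call in the KMT2D lineage was lost without sgKMT2D-Mes replicate 1 (adjusted p = 0.054). Among the epithelial groups, 14 of the 25 were higher, 3 were lower and 8 did not pass in sgEED-Epi against sgControl, and 16, 4 and 5 in sgKMT2D-Epi. The shares called were 68.0% and 80.0%, against 48.8% and 56.0% of all genes tested. In sgControl against C1, 3 were higher, 12 were lower and 10 did not pass, a share of 60.0% against 27.1%.

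Genes that lie beside the imprinted genes were taken from a list of 54, of which 44 were tested. In the C2 lineage 12 rose, 6 fell and 26 did not pass, in the EED lineage 6 rose, 8 fell and 30 did not pass, and in the KMT2D lineage 14 rose, 12 fell and 18 did not pass. The shares called were 40.9%, 31.8% and 59.1%, against 39.6%, 36.5% and 50.8% of all genes tested. Among the members tested they were 74.1%, 25.9% and 63.0%. The neighbours were listed for their position beside the members. Whether they are themselves imprinted was not checked, so they are not a set of unimprinted genes. The medians of the neighbours were 0.15, -0.10 and 0.00. The neighbour with the largest change was COBL, an actin-nucleating gene beside GRB10, which went from 25.7 ± 0.530 to 0.169 ± 0.116 CPM in the KMT2D lineage (log2 -7.19 ± 0.36 (SE), edgeR adjusted p = 2.2e-09) and fell in the EED lineage (log2 -4.45 ± 0.26 (SE), edgeR adjusted p = 1.4e-08). GRB10 itself changed by -0.40 and 0.39 in these lineages.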

How the data were processed

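RNA-seq gene counts of 16 HMLER libraries were deposited by the authors as whole-number counts, 1 table per library. Per the submitters' processing notes, STAR 2.7.1a, featureCounts and GRCh38 were used. Which annotation release, strand setting and rule for multi-mapped reads were used is not given in the sources used here. Symbols and coordinates come from GENCODE 29, which holds 94.1% of the 60448 genes.

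filterByExpr kept 18285 genes, which were TMM-scaled and fitted in edgeR 4.0.16 (R 4.3.3) with a mean for each group and 8 residual degrees of freedom. Robust quasi-likelihood tests were adjusted by Benjamini-Hochberg over all of them. "Lineage" means the mesenchymal group minus the epithelial group of C2, sgEED or sgKMT2D. SE is the log2 change divided by the root of F. Fitted log2 changes use edgeR's default prior count, so those of genes near 0 counts depend on it. Alternatives were RLE scaling, no filter, a Wald test in DESeq2 1.42.0, separate fits of the groups compared, a replicate block, an offset for GC content and length (1 spline per library), other controls, and each library left out. Figures were drawn with matplotlib 3.10.9 in Python 3.11.15.

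The members, the gene lists and the alternatives were chosen with earlier results of these data known. CPM of both libraries is printed for members that reach 5 CPM in a group mean, or are called in a pairwise comparison with at least 1 CPM. Of each list, up to 6 genes called in a lineage with at least 5 CPM are named, by size of change. KCNQ1, RTL1, KLF14 and the other low members were named to account for every member. The fit was tested on simulated counts with known folds, for sgEED-Mes against sgEED-Epi. It recovered 4.26% of the 1.5-fold, 50% of the 2-fold and 84.2% of the 4-fold changes, with 10 false calls. The simulation changed only a small part of its 17299 genes, whereas 36.5% of all genes tested were called in the real comparison. The adjusted threshold was thus harder to pass in the simulation, and its rates need not hold for the real data. A gene that did not pass may still differ, above all at small folds.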

Additional observations from a re-analysis of the deposited data

Results flagged for a closer look

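The change from epithelial to mesenchymal cells differed between lineages for 18 members by a test of the difference itself (edgeR interaction, adjusted p under 0.05). The values are differences of 2 log2 changes. Both changes compared with the C2 lineage use the same C2 libraries, and the 2 C2-Mes libraries lay further apart than those of any other group. PPP1R9A and L3MBTL1 had at most 1 count over the libraries of at least 1 group, so the size of their differences depends on edgeR's prior count.

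The EED lineage minus the C2 lineage gave a difference above 0 for IGF2 (5.34 ± 0.62, adjusted p = 3.5e-05), L3MBTL1 (4.01 ± 1.04, adjusted p = 0.013), H19 (3.48 ± 0.78, adjusted p = 0.0057), MEST (2.7 ± 0.34, adjusted p = 6.4e-05) and PEG10 (1.61 ± 0.37, adjusted p = 0.0063) (log2 ± SE). It was below 0 for PPP1R9A (-8.74 ± 1.22, adjusted p = 0.0002), NAP1L5 (-1.99 ± 0.39, adjusted p = 0.0021), PHLDA2 (-1.62 ± 0.40, adjusted p = 0.01), GRB10 (-1.60 ± 0.21, adjusted p = 7.1e-05), IGF2R (-1.51 ± 0.24, adjusted p = 0.00048), TRAPPC9 (-1.14 ± 0.27, adjusted p = 0.0079) and PLAGL1 (-0.71 ± 0.21, adjusted p = 0.028). The H19 call was lost in a fit of the compared libraries alone (adjusted p = 0.052). The H19 log2 change was 5.72 without C2-Mes replicate 1. The PHLDA2 call was lost in a fit of the compared libraries alone (adjusted p = 0.074) and without sgEED-Mes replicate 2 (adjusted p = 0.053). The PHLDA2 log2 change was -0.87 without C2-Mes replicate 2. The PEG10 call was lost in a fit of the compared libraries alone (adjusted p = 0.053). The PLAGL1 call was lost with no filter on low counts (adjusted p = 0.12), in a fit of the compared libraries alone (adjusted p = 0.16) and without any 1 of C2-Epi replicate 1, C2-Epi replicate 2, sgEED-Epi replicate 1, sgEED-Epi replicate 2 and sgEED-Mes replicate 1 (adjusted p = 0.053 to 0.14). The L3MBTL1 call was lost in a fit of the compared libraries alone (adjusted p = 0.071), without C2-Mes replicate 2 (adjusted p = 0.12) and without sgEED-Mes replicate 1 (adjusted p = 0.082). The L3MBTL1 log2 change was 6.46 without C2-Mes replicate 1. The TRAPPC9 call was lost in a fit of the compared libraries alone (adjusted p = 0.069).

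The KMT2D lineage minus the C2 lineage gave a difference above 0 for L3MBTL1 (4.48 ± 0.99, adjusted p = 0.0046), H19 (4.17 ± 0.79, adjusted p = 0.0018), MEG3 (2.40 ± 0.49, adjusted p = 0.003), SLC22A18 (2.27 ± 0.46, adjusted p = 0.0026), PEG10 (1.97 ± 0.37, adjusted p = 0.0016), MEST (1.42 ± 0.34, adjusted p = 0.0079) and COPG2 (0.62 ± 0.19, adjusted p = 0.031) (log2 ± SE). It was below 0 for GRB10 (-2.39 ± 0.21, adjusted p = 2.7e-06), NAP1L5 (-1.22 ± 0.38, adjusted p = 0.033) and PLAGL1 (-0.92 ± 0.21, adjusted p = 0.0061). The H19 log2 change was 6.38 without C2-Mes replicate 1. The MEST call was lost in a fit of the compared libraries alone (adjusted p = 0.053). The COPG2 call was lost with no filter on low counts (adjusted p = 0.13) and without any 1 of C2-Epi replicate 1, C2-Epi replicate 2, sgKMT2D-Epi replicate 1, sgKMT2D-Epi replicate 2, sgKMT2D-Mes replicate 1 and sgKMT2D-Mes replicate 2 (adjusted p = 0.068 to 0.078). The L3MBTL1 log2 change was 6.89 without C2-Mes replicate 1. The NAP1L5 call was lost without any 1 of C2-Epi replicate 2, sgKMT2D-Epi replicate 1, sgKMT2D-Epi replicate 2, sgKMT2D-Mes replicate 1 and sgKMT2D-Mes replicate 2 (adjusted p = 0.059 to 0.15).

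The EED lineage minus the KMT2D lineage gave a difference above 0 for IGF2 (3.95 ± 0.49, adjusted p = 8.8e-05), MEST (1.28 ± 0.33, adjusted p = 0.015), GNAS (1.06 ± 0.26, adjusted p = 0.01) and GRB10 (0.79 ± 0.20, adjusted p = 0.014) (log2 ± SE). It was below 0 for PPP1R9A (-5.44 ± 0.85, adjusted p = 0.00072), MEG3 (-3.69 ± 0.48, adjusted p = 0.00014), SLC22A18 (-2.89 ± 0.49, adjusted p = 0.00089), MEG8 (-2.44 ± 0.56, adjusted p = 0.0071), FAM50B (-1.63 ± 0.40, adjusted p = 0.01), TRAPPC9 (-1.35 ± 0.28, adjusted p = 0.0038) and IGF2R (-0.82 ± 0.24, adjusted p = 0.029). The MEG8 call was lost without sgKMT2D-Epi replicate 2 (adjusted p = 0.053). The IGF2R call was lost when any of the 8 libraries was left out (adjusted p = 0.058 to 0.13). The FAM50B call was lost without sgKMT2D-Epi replicate 1 (adjusted p = 0.058) and without sgKMT2D-Mes replicate 1 (adjusted p = 0.063).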

How the results depend on the processing

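Of 1898 alternative values of the 171 gene-level results, 1729 kept their direction and their side of the threshold, 132 lost the call, 30 gained one and 7 changed sign. RLE scaling moved none of the 171 across the threshold. The sign changes were IGF2R in the EED lineage (-0.06) and SGCE in sgEED-Epi (-0.21) and sgKMT2D-Epi (-0.56) after GC and length correction, BLCAP in sgEED-Epi (0.05) and sgKMT2D-Epi (0.02) against C1 alone, SLC22A18 in the EED lineage without sgEED-Mes replicate 1 (-0.04, and 1.16 without replicate 2), and BEGAIN in the C2 lineage without C2-Mes replicate 1 (0.39, and -1.85 without replicate 2). In separate fits of the groups compared, the members called numbered 11 in the C2 lineage (20 in the fit of all libraries), 16 for C2-Epi against C1 (10) and 6 for the interaction of the EED and C2 lineages (12). In the EED lineage 13 were called with no filter and 12 after GC and length correction (7). Against C1 alone, 9 were called in sgEED-Epi (18). With 1 library left out, 5 to 6 were called for C2-Epi against C1, 3 to 5 for sgControl against C1 (9) and 8 to 16 for the interaction of the KMT2D and C2 lineages (10). Leave-one-out fits keep 1 library in an arm, which is assumed to vary like the other groups. The cause of these shifts was not tested.

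Over all genes, separate fits called 3361 in the C2 lineage (7246), 9967 for C2-Epi against C1 (5620) and 2130 for the interaction of the EED and C2 lineages (3866). In the EED lineage 7022 of 36796 genes were called with no filter and 8331 of 18285 after GC and length correction (6673 of 18285). Leaving out 1 library gave 2629 to 3466 for C2-Epi against C1 and 2226 to 2496 for sgControl against C1 (4951) without either C1 library or sgControl replicate 2. Without C2-Mes replicate 2 the interaction of the KMT2D and C2 lineages had 6749 calls (4410), and without sgKMT2D-Epi replicate 1 or sgKMT2D-Mes replicate 1 that of the EED and KMT2D lineages had 2293 and 2425 (3674). Against C1 alone, sgEED-Epi had 4601 (8930). Of the calls for C2-Epi against C1, 40.4% were higher in C2-Epi, and 51.3% with no filter, 54.9% after GC and length correction and 50.5% without C2-Epi replicate 1.

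The labels do not say that a replicate number marks a shared batch, and the deviations of same-numbered libraries correlated by -0.371 to 0.344 over 28 pairs of groups. With the replicate block, 19, 8 and 17 members were called in the C2, EED and KMT2D lineages, 10 for C2-Epi and 8 for sgControl against C1, 18 for sgEED-Epi and 19 for sgKMT2D-Epi against sgControl, and 12, 10 and 11 in the interactions. Over all 18285 genes tested, the block gave 7138, 6558 and 9197 calls in these lineages, 5465 and 4863 against C1, and 8820 and 10137 against sgControl. In the interactions it gave 3732, 4202 and 3533. Of the gene-level results, the block ended the calls of GRB10 in the EED lineage (0.39, adjusted p = 0.062) and INPP5F in the C2 lineage (-0.45, adjusted p = 0.06), gave one to DIRAS3 in the EED lineage (1.69, adjusted p = 0.046) and changed no other. Total counts limit the members near 0, whose fitted changes depend on the prior count.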
